A study of Mus musculus with 24 samples.

Results

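The imprinted growth-network genes were described here in whole livers of mice after 20 weeks on a control diet or on a methionine-choline deficient (MCD) diet. The members were the 10 rows of the count table whose symbol was Dlk1, Meg3, Rian, Mirg, H19, Igf2, Plagl1, Peg3, Mest or Cdkn1c, of 56205 gene rows in all, and all 10 symbols were found. The members were chosen by their counts and fold changes in the diet contrast of these same libraries, so their differences between the diets are given as a description and carry no test.

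All 24 animals were C57BL/6J mice, 12 per diet, and poly(A) RNA of each liver gave 1 library. The series assigns males and females to each diet in equal number, but no label gives the sex of a single library. The labels name the diet as deficient in methionine and choline, while the study also describes its model as a choline-deficient diet with defined amino acids and high fat, so its methionine content is not certain here. Diets of this kind are used to model steatohepatitis with fibrosis. Ages at the start were not given in the sources used here. The MCD diet was also high in fat by the study's methods, which the labels do not mention.

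Imprinted genes are transcribed mainly from the copy inherited from the mother or mainly from the copy inherited from the father, and many of them act on fetal growth. In the Dlk1-Dio3 region the maternal copy gives the long non-coding RNAs Meg3, Rian and Mirg, which carry small nucleolar RNAs and microRNAs, while the paternal copy gives the protein-coding genes Dlk1, Rtl1 and Dio3. H19 is a maternally expressed non-coding RNA beside the paternally expressed growth factor gene Igf2, and H19 is abundant in fetal liver and silenced there after birth.

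Total counts ran from 16793207 to 24915175 in control libraries and from 16388650 to 24577848 in MCD libraries. Levels below are CPM, counts per 1000000 counts of the library, after scaling by the trimmed mean of M values (TMM), whose factors were 0.642 to 0.973 in control and 1.07 to 1.26 in MCD libraries. The floor of detection was set at 3 counts. It equals 0.134 to 0.227 CPM in control and 0.109 to 0.158 CPM in MCD libraries, and covers counting error only. Over all 14109 genes that passed the filter on low counts, 38.3% met an FDR of 0.01 or less with a log2 fold change beyond 0.5, so a difference by diet was common in these livers. Summed mesenchymal markers were 234 to 676 CPM in control and 859 to 1475 CPM in MCD livers, with 9 of 12 markers higher and 1 lower. Summed cholangiocyte markers were 30.1 to 146 CPM and 453 to 906 CPM, with 6 of 6 higher. Macrophage markers summed to 112 to 323 CPM and 577 to 1165 CPM, with 4 of 7 higher and 3 lower, and endothelial markers to 190 to 283 CPM and 105 to 175 CPM, with 5 of 6 lower. All 5 proliferation markers and 3 of 5 lymphocyte markers were higher in MCD livers. The adipocyte markers Adipoq, Plin1 and Lep had at most 3 counts in the other 23 libraries, but 239, 266 and 5 counts in MCD replicate 4. Cidec, the remaining marker of that list, had 990 counts there, inside the range of the other MCD libraries. Of the hepatocyte markers 2 of 8 were lower and none higher, and their sum was 76890 to 172992 CPM in control and 58518 to 87156 CPM in MCD livers, so the tissue expressed the markers of its label. In bulk tissue, a change in the number of cells of a type and a change of RNA per cell cannot be told apart, and the part of these markers in the members' values was not tested.

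The non-coding RNAs of the Dlk1-Dio3 region were almost silent in control livers and clearly transcribed in MCD livers. Meg3, which lies on chromosome 12 of GRCm38 between 109541001 and 109571726 on the plus strand, had 2 to 20 counts in control libraries with a median of 13. In MCD libraries its counts ran from 508 to 3071 with a median of 893.5. Each of the 12 MCD libraries exceeded each control library. Groups that did not overlap were found for 14.4% of all genes tested, and for 9.5% with MCD higher. Mean Meg3 was 0.709 ± 0.352 CPM (SD, n = 12) in control and 43.9 ± 24.9 CPM (SD, n = 12) in MCD livers, a log2 fold change of 5.98 with an SE of 0.32.

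Rian, the next non-coding RNA downstream (chromosome 12, 109603940 to 109661716), showed the same separation. It had 0 to 8 counts in control libraries with a median of 2.5, and 125 to 659 in MCD libraries with a median of 259. Mean Rian was 0.227 ± 0.190 CPM in control and 11.6 ± 5.39 CPM with the MCD diet (SD, n = 12 each), and the log2 fold change was 5.67 with an SE of 0.36. In 6 of 12 control libraries Rian was under the floor.

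Mirg, the microRNA-containing transcript at the far end of the cluster (chromosome 12, 109729764 to 109749460), was at 0 in 11 of 12 control libraries and at 1 count in control replicate 7. MCD libraries held 14 to 124 counts with a median of 36.5. Pooled over the libraries of a diet, 1 count stood against 548, a ratio of 396 per unit of scaled depth with a 95% interval from 70.8 to 15666 that covers counting error only and not the spread between mice. The fitted log2 fold change of 7.44 (SE 0.54) rests on that single control count. Without control replicate 7 it was 8.27, a value over a control group at 0 counts, so its size reflects the fit and not a measured ratio.

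Dlk1, which encodes a membrane-bound and secreted protein of the Delta and Notch family, stayed near the floor. It had 0 counts in 9 of 12 control libraries, with a highest count of 4, and 0 to 17 counts in MCD libraries with a median of 7. The pooled totals were 9 and 84 counts, a ratio of 6.74 per unit of scaled depth. Of the MCD libraries 7 exceeded every control library and 2 had no count, so the diets overlapped. Dlk1 did not pass the filter on low counts, so it was not in the fit, and 9 of the 10 members were.

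The other paternally expressed genes of the region did not show the counts that Meg3 showed. Rtl1, a gene derived from a retrotransposon, had at most 1 count in control and at most 4 in MCD libraries. Dio3, a deiodinase that inactivates thyroid hormone, had a median of 4.5 counts in control and 4 in MCD libraries, with highest counts of 10 and 13. Begain, which lies beyond Dlk1, had medians of 0 and 4 counts and at most 9. Within 500 kb of the starts of these members the annotation listed 94 other rows of the table, of which 0 passed the filter on low counts.

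**Figure D1:**
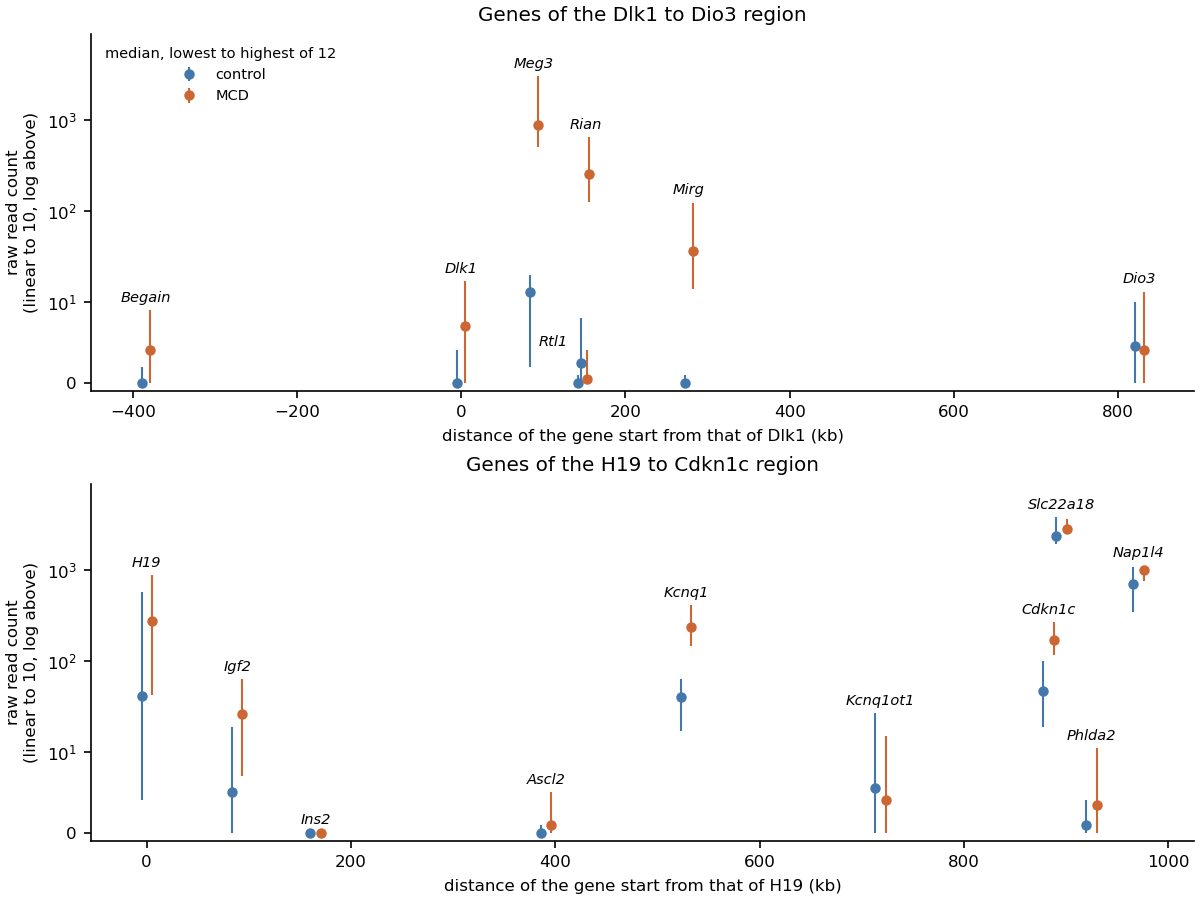
Median raw read count (points) with the lowest and highest of 12 libraries (lines) for each diet, plotted against the distance of each gene's start from that of Dlk1 (upper panel) or H19 (lower panel) in kb; the count axis is linear up to 10 and logarithmic above. Meg3, Rian and Mirg stand apart by diet between genes whose counts stayed at or below 17, while in the lower panel Kcnq1 and Cdkn1c have higher medians in MCD livers (239.5 and 169.5 counts) than in control livers (40.5 and 47.5 counts).

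The start of Meg3 and that of Rian differ in sequence composition, and they are shown because both RNAs were transcribed in MCD and nearly silent in control livers. The RefSeq windows span 250 bases before to 50 after the annotated start and are given 5′ to 3′ on the plus strand of GRCm38.p6, at chr12:109540746-109541045 for Meg3 (the upstream of its RefSeq starts) and chr12:109603695-109603994 for Rian. Both strands were searched for TGCCGC (reverse GCGGCA, bound by the imprint-keeping factor ZFP57 where methylated), TGACGTCA (the cyclic AMP response element), GGGGCCCC (a PLAGL1 motif) and TATAAA (reverse TTTATA). Capitals mark the matches, and the run TTTATATAAA in the Meg3 window is an overlap of TTTATA and TATAAA.
Meg3: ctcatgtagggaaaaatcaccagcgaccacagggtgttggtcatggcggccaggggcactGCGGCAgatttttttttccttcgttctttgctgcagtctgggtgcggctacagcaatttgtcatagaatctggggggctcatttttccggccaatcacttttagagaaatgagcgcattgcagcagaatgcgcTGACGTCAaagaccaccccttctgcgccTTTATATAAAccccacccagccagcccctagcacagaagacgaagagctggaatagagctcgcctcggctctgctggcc
Rian: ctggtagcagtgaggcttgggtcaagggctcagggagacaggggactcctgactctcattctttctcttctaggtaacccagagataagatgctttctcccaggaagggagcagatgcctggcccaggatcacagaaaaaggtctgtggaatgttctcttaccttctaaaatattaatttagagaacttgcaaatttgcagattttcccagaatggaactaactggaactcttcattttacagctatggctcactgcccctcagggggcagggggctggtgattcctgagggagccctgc

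The Meg3 window held GCGGCA at position -190, TGACGTCA at -57 and the overlapping TATA letters at -29 and -25, counted from the start site. Among 32851 mouse windows of the same length, 11.6% held TGCCGC on either strand, 1.79% TGACGTCA, 1.08% GGGGCCCC and 13.6% TATAAA. The Meg3 window had 13 CG dinucleotides and the Rian window 0, where the median of all windows was 7. The Rian window held none of the 4 motifs. A match is a description of the letters and not of binding.

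MicroRNAs listed by RefSeq lie inside Meg3, Rian, Mirg, H19, Igf2 and Mest on the same strand, and the table has 22 rows for their hairpins, each at 0 counts in all 24 libraries. Poly(A) libraries are not made to capture hairpins or mature microRNAs, so their levels were not measured. RefSeq lists 41 mature sequences inside these members, with 40 different seeds (bases 2 to 8), and 26 of the 41 lie in Mirg. The only shared seed was that of miR-453 and miR-496a-5p, both in Mirg. These are shown with 1 example each from Meg3, Rian and H19 so that the products of the transcripts above can be identified, with the seed in capitals, 5′ to 3′.
mmu-miR-453: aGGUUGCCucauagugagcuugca
mmu-miR-496a-5p: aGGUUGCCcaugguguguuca
mmu-miR-770-5p (Meg3): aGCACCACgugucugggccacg
mmu-miR-370-3p (Rian): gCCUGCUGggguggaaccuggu
mmu-miR-675-5p (H19): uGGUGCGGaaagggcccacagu

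H19 had the highest mean level per kilobase of exon of all members in both diets, in control livers through 1 library and in MCD livers through the 6 libraries set apart further on by a sex-linked score, and it varied most between mice. On chromosome 7 of GRCm38 it lies on the minus strand between 142575529 and 142578143. Control libraries held 4 to 579 counts with a median of 41, and MCD libraries 43 to 890 with a median of 278. The diets overlapped at both ends, since 3 MCD libraries had at most 65 counts and control replicate 4 had 579, where the other 11 control libraries had at most 66. Mean H19 was 4.57 ± 8.97 CPM in control and 13.5 ± 12.002 CPM with MCD (SD, n = 12 each), with a log2 fold change of 1.55 and an SE of 0.62. Without control replicate 4 the control mean was 2.01 ± 1.39 CPM (SD, n = 11) and the log2 fold change 2.72. The 890 counts belong to MCD replicate 4, the library with adipocyte transcripts, which also had the highest proliferation marker sum of the MCD libraries at 33.6 CPM. Without it the MCD mean was 11.3 ± 9.76 CPM (SD, n = 11) and the log2 fold change 1.33.

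Igf2, the fetal growth factor gene beside H19, was low throughout. It had 0 to 19 counts in control libraries with a median of 5, and 7 to 63 in MCD libraries with a median of 26. In CPM, all 12 MCD libraries were above the control median and 6 were above every control library, while in raw counts 7 were above every control library. Mean Igf2 was 0.399 ± 0.355 CPM in control and 1.03 ± 0.690 CPM with the MCD diet (SD, n = 12 each), with a log2 fold change of 1.41 and an SE of 0.44. Its exons share 3596 bases with Gm49394 on the same strand, to which 9 counts were assigned over the 24 libraries.

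Cdkn1c encodes the cyclin-dependent kinase inhibitor p57 and sits in the same imprinted cluster of chromosome 7 (143458339 to 143461050, minus strand). It was the least variable member. Control libraries held 19 to 101 counts with a median of 47.5 and MCD libraries 116 to 268 with a median of 169.5. The raw counts of the diets did not overlap, and in CPM 11 of 12 MCD libraries were above every control library. Mean Cdkn1c was 2.92 ± 1.18 CPM in control and 7.42 ± 1.94 CPM with the MCD diet (SD, n = 12 each), with a log2 fold change of 1.34 and an SE of 0.19.

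**Figure D2:**
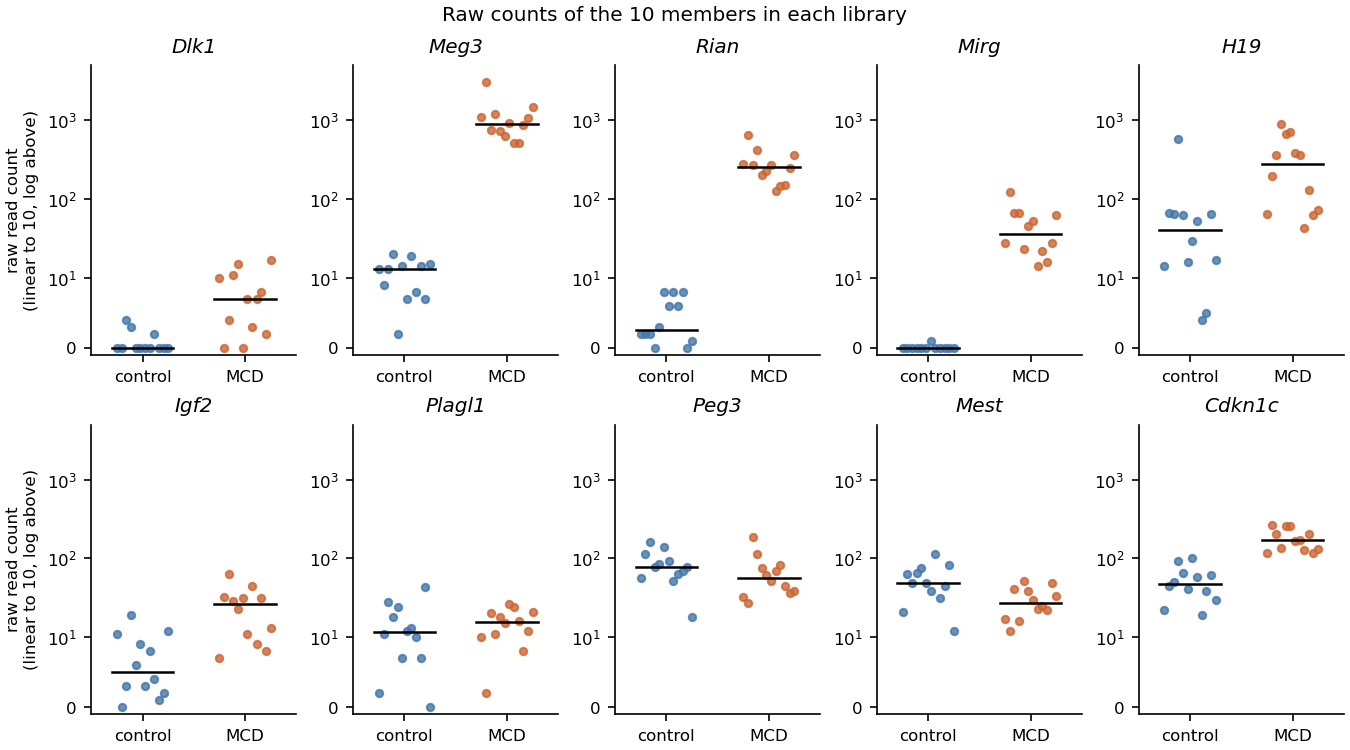
Raw read count of each member in each library, 12 control (blue) and 12 MCD (orange), on an axis that is linear up to 10 counts and logarithmic above; black lines are medians. In these raw counts, which are not scaled for depth, Meg3, Rian, Mirg and Cdkn1c do not overlap between the diets. In CPM, 3 members did not overlap, beside 9.5% of all genes tested with MCD higher, and Cdkn1c did overlap. The share of all genes was not computed for raw counts. H19 overlaps with 1 control library at 579 counts and 3 MCD libraries at 65 or fewer, and Peg3, Plagl1 and Mest overlap over most of their range.

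By mean CPM, the remaining paternally expressed members were not higher in MCD livers. Mest, which encodes a protein with a hydrolase fold and lies on chromosome 6 (30723547 to 30748465, plus strand), had 12 to 112 counts in control libraries with a median of 48.5. In MCD libraries it had 12 to 52 counts with a median of 27.5. All 12 MCD libraries were below the control median in CPM and 4 were below every control library. The lowest control library was replicate 12 at 0.908 CPM, and the next was control replicate 1 at 1.43 CPM. Mean Mest was 3.04 ± 1.51 CPM in control and 1.26 ± 0.588 CPM with the MCD diet (SD, n = 12 each), with a log2 fold change of -1.27 and an SE of 0.27. Its exons share 912 bases with Copg2 on the opposite strand, and since the use of strand in counting is not given, reads there cannot be assigned with certainty. Copg2 had 14281 counts over the 24 libraries and a log2 fold change of -0.33.

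Peg3, a zinc finger gene of chromosome 7 (6703892 to 6730431, minus strand), had 18 to 161 counts in control libraries with a median of 77.5 and 27 to 188 in MCD libraries with a median of 56.5. Mean Peg3 was 4.80 ± 2.23 CPM in control and 2.87 ± 1.86 CPM with the MCD diet (SD, n = 12 each), and 10 of 12 MCD libraries lay below the control median. The log2 fold change was -0.74 with an SE of 0.29. The ranges overlapped, with 1 MCD library below every control library. The lowest control library was replicate 12 at 1.36 CPM, and the next was control replicate 8 at 2.97 CPM. Control replicate 12 was also the lowest control library for Mest and Plagl1. It had the lowest TMM factor, 0.642, and the highest hepatocyte marker sum, 172992 CPM.

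The sequence before the Peg3 start is shown because it held the same cyclic AMP response element as the Meg3 window, TGACGTCA at position -178. Whether the element acts in these livers was not tested. GGGGCCCC, the PLAGL1 motif, stood at -201. The 250 bases before the start are given 5′ to 3′ on the minus strand (RefSeq, GRCm38.p6, chr7:6730420-6730669), with both matches in capitals.
Peg3: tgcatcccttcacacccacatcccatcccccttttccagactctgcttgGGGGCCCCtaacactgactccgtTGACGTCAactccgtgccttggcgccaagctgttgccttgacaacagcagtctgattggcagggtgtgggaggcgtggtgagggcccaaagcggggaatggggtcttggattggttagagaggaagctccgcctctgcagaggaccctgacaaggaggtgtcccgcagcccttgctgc

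Plagl1 encodes a zinc finger transcription factor that is known to activate other imprinted genes, and its groups overlapped throughout. Control libraries held 0 to 43 counts with a median of 11.5 and MCD libraries 2 to 26 with a median of 15.5. The median in CPM was 0.615 in control and 0.656 in MCD livers, and 8 of 12 MCD libraries were above the control median. Mean Plagl1 was 0.785 ± 0.577 CPM in control and 0.640 ± 0.277 CPM with the MCD diet (SD, n = 12 each), with a log2 fold change of -0.33 and an SE of 0.38.

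Counted over the 9 members in the main fit, which has no replicate block, 5 lay beyond both limits as higher (Meg3, Rian, Mirg, Igf2 and Cdkn1c), beside 19.2% of all genes tested. Mest was the 1 member beyond them as lower, beside 19.1% of all genes. The median log2 fold change of the 9 was 1.41, where that of all genes was -0.10. The contrast was known when the members were chosen, so nothing is read from these counts.

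**Figure D3:**
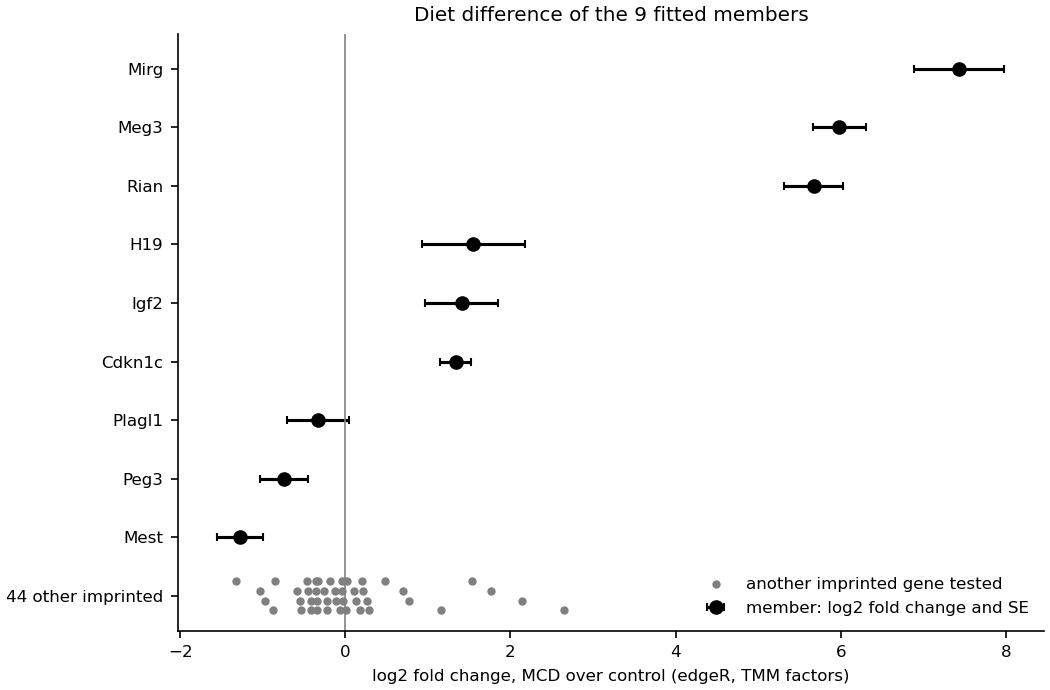
Log2 fold change, MCD over control, of the 9 members in the fit (black points, bars are 1 SE) and of 44 other imprinted genes in the same fit (grey points, spread vertically for display). Meg3, Rian and Mirg lie at 5.67 or more, beyond every other imprinted gene, whose highest value was 2.65, while Mest and Peg3 lie below 0.

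Levels of members of unlike length are given per kb, where the length is the union of all annotated exons of a gene. It was 18089 bases for Meg3, 18234 for Rian, 2460 for H19 and 2039 for Cdkn1c. The transcripts present may be shorter, so the order depends in part on the annotation. In control livers, mean CPM per kb of exon was 1.86 for H19 (0.818 without control replicate 4), 1.43 for Cdkn1c, 0.771 for Mest and 0.360 for Peg3. It was 0.1004 for Plagl1, 0.070 for Igf2, 0.039 for Meg3, 0.012 for Rian, 0.0075 for Dlk1 and 0.00053 for Mirg. The order changed in MCD livers, where Meg3 followed Cdkn1c. There, H19 had 5.48 ± 4.88, Cdkn1c 3.64 ± 0.952 and Meg3 2.43 ± 1.37 CPM per kb (SD, n = 12), and neighbours among these 3 differed by less than the larger of their SDs. Among the 6 MCD libraries with a sex-linked score below 0, H19 had 1.58 ± 0.763, below Cdkn1c at 3.31 ± 0.879 and Meg3 at 3.07 ± 1.68 CPM per kb (SD, n = 6). Over all 12 MCD libraries, Rian followed at 0.637, Mest at 0.320, Mirg at 0.255, Peg3 at 0.215, Igf2 at 0.180, Plagl1 at 0.082 and Dlk1 at 0.051. Neighbours from Mest to Igf2 differed by less than their SDs.

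All 9 members in the fit varied more between mice of a diet than genes of their abundance did on average. The biological coefficient of variation of edgeR, which pools the spread within both diets, was 101% for H19, where genes of that abundance had 24.4%. It was 67.5% for Igf2 (37.8% for genes of its abundance), 57.9% for Plagl1 (37.8%), 54.0% for Mirg (37.6%), 48.3% for Peg3 (30.3%), 46.0% for Rian (26.8%) and 44.4% for Meg3 (22.5%). The excess was smaller for Mest, with 43.9% against 34.6%, and smallest for Cdkn1c, with 30.6% against 27.9%. The value for H19 was at percentile 99.3 of all genes tested and that for Cdkn1c, the lowest of the 9, at 79.7. The value of H19 includes control replicate 4.

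A sex-linked expression score set libraries apart within each diet and went with the spread of H19. The score was the difference on the log2 CPM scale between Xist and the average of the Y-linked genes Uty, Kdm5d, Eif2s3y and Ddx3y. It serves here only as a covariate, without naming the sex of any animal. In each diet it was above 0 in 6 libraries and below 0 in 6, with no value between -5.21 and 10.7. In MCD livers, H19 had 360 to 890 counts in the 6 libraries with a score above 0 and 43 to 196 counts in the 6 below it. The sets did not overlap, with 23.1 ± 9.63 CPM in the first and 3.88 ± 1.88 CPM in the second (SD, n = 6 each). In control livers, H19 was 0.984 to 32.8 CPM above 0 and 0.236 to 3.09 CPM below it. Since the sets were drawn after the data were seen, these values carry no test.

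Within either set, H19 was higher in MCD than in control livers. The log2 fold change was 1.62 (SE 0.65) among libraries with a score above 0 and 1.43 (SE 0.52) among those below it. The first value includes control replicate 4. The other 5 control libraries above 0 had 16 to 66 counts and 2.67 ± 1.38 CPM (SD, n = 5), against which the log2 fold change was 3.15 (SE 0.37). In the second set, all control libraries had at most 65 counts, so control replicate 4 plays no part there. Control Peg3 was 4.33 to 9.02 CPM in libraries with a score above 0 and 1.36 to 4.55 CPM in those below it, with a narrow overlap. Meg3 separated the diets in both sets, with 510 to 1194 MCD counts against 2 to 20 control counts above 0 and 508 to 3071 against 7 to 19 below it. Cdkn1c had log2 fold changes of 1.201 (SE 0.21) and 1.64 (SE 0.26).

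**Figure D4:**
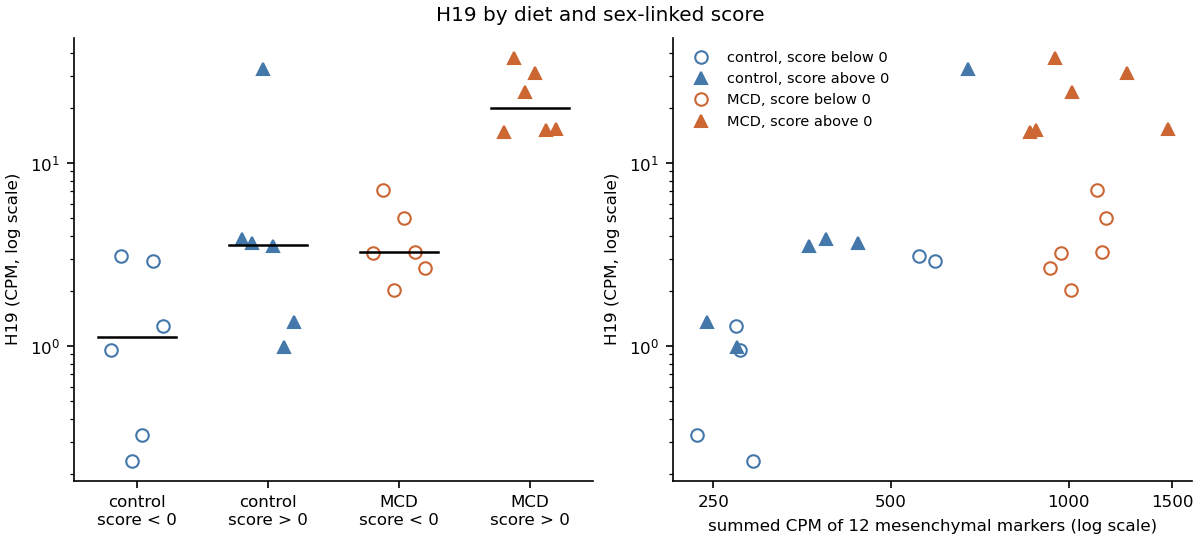
Left, H19 in CPM (log axis) by diet and by whether the sex-linked score was below or above 0, 6 libraries per column with black lines at the medians; right, the same H19 values against the summed CPM of 12 mesenchymal markers (log axis). The 6 MCD libraries with a score above 0 lie at 14.8 to 37.6 CPM and the other 6 at 2.01 to 7.13 CPM, and among control libraries H19 is higher where the marker sum is higher.

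Covariation was computed between mice of the same diet, so its r values do not use the diet contrast, but the entry of members does in part. Members with a median of at least 10 counts in a diet entered, which left 6 in control and 9 in MCD livers. With the mean log2 CPM of the mesenchymal markers as a further variable this gave 66 relations over 12 libraries each. Of these, 3 passed an adjusted p of 0.05 for Pearson's r (two-sided permutation tests with 100000 resamples, Benjamini-Hochberg over the 66), 1 in control and 2 in MCD livers. Rian, Mirg and Igf2 entered in MCD livers only, where they were high, with control medians of 2.5, 0 and 5 counts. Both MCD relations that passed include Rian, so they have no control counterpart and describe MCD livers alone.

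In MCD livers, Meg3 and Rian moved together, with r = 0.890 (permutation p = 0.00011, adjusted p = 0.00363) and rho = 0.853 (p = 0.00083, adjusted p = 0.0436). Rian and Mirg did so too, with r = 0.898 (permutation p = 0.0001, adjusted p = 0.00363) and rho = 0.832 (p = 0.00132, adjusted p = 0.0436). Meg3 and Mirg, at the ends of the cluster, had r = 0.689 (permutation p = 0.0124, adjusted p = 0.117) and rho = 0.601 (p = 0.0424, adjusted p = 0.235). Leaving out the 2 libraries in which the first gene lay farthest from its median, r was 0.788 for Meg3 and Rian and 0.802 for Rian and Mirg, with adjusted p of 0.203 and 0.201. For Meg3 and Mirg r was then 0.375 (permutation p = 0.278, adjusted p = 0.847). The same 2 libraries leave as for Meg3 and Rian, so the range of Meg3 narrows alike in both relations. Why r of Meg3 and Mirg dropped further was not tested. With residuals after the sex-linked score, r of Meg3 and Mirg was 0.809 (permutation p = 0.00117, adjusted p = 0.0154).

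Because the score forms separate clusters, r was also computed within each set of 6 MCD libraries by exact permutation tests, adjusted over 132 relations. The smallest p that 6 libraries can give here is 0.00278, and none passed after adjustment. Meg3 and Rian had r = 0.945 above 0 (exact p = 0.00833, adjusted p = 0.3) and r = 0.949 below it (exact p = 0.0306, adjusted p = 0.31). Rian and Mirg had r = 0.919 (exact p = 0.00278, adjusted p = 0.3) and r = 0.927 (exact p = 0.0111, adjusted p = 0.3). Meg3 and Mirg had r = 0.792 (exact p = 0.0139, adjusted p = 0.3) and r = 0.864 (exact p = 0.0556, adjusted p = 0.444). By rank, Meg3 and Rian had rho = 0.943 above 0 and 0.771 below it, Rian and Mirg 1.0 and 0.829, and Meg3 and Mirg 0.943 and 0.771, with exact p of 0.00278 to 0.103 and adjusted p of 0.367 to 0.678.

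In MCD livers, the ratio of Rian to Meg3 varied less than the level of either. Per library, Rian counts were 17.6% to 36.2% of Meg3 counts, while CPM spanned 5.15-fold for Meg3 and 4.51-fold for Rian. Mirg counts were 1.84% to 8.66% of Meg3 counts, a range about as wide as that of the Meg3 level. It was narrower than that of the Mirg level, whose CPM spanned 7.57-fold. In control livers the ratio of Rian to Meg3, at counts of 20 or fewer, ran from 0% to 150%. Pooled over the libraries, Rian was 26.3% of Meg3 in MCD livers and 32.6% in control livers, where the totals were 46 and 141 counts. Mirg was 4.28% of Meg3 in MCD livers, and 0.709% in control livers, where it rests on 1 count. The highest MCD library for all 3 RNAs was replicate 2, with 112 CPM of Meg3, 23.97 of Rian and 4.51 of Mirg. Its mesenchymal marker sum of 1116 CPM was inside the range of the other MCD libraries, and its macrophage marker sum, 1165 CPM, was the highest of the 12. Its cholangiocyte sum, 905 CPM, was the second highest, while its hepatocyte sum, 58518 CPM, and its endothelial sum, 105 CPM, were the lowest.

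**Figure D5:**
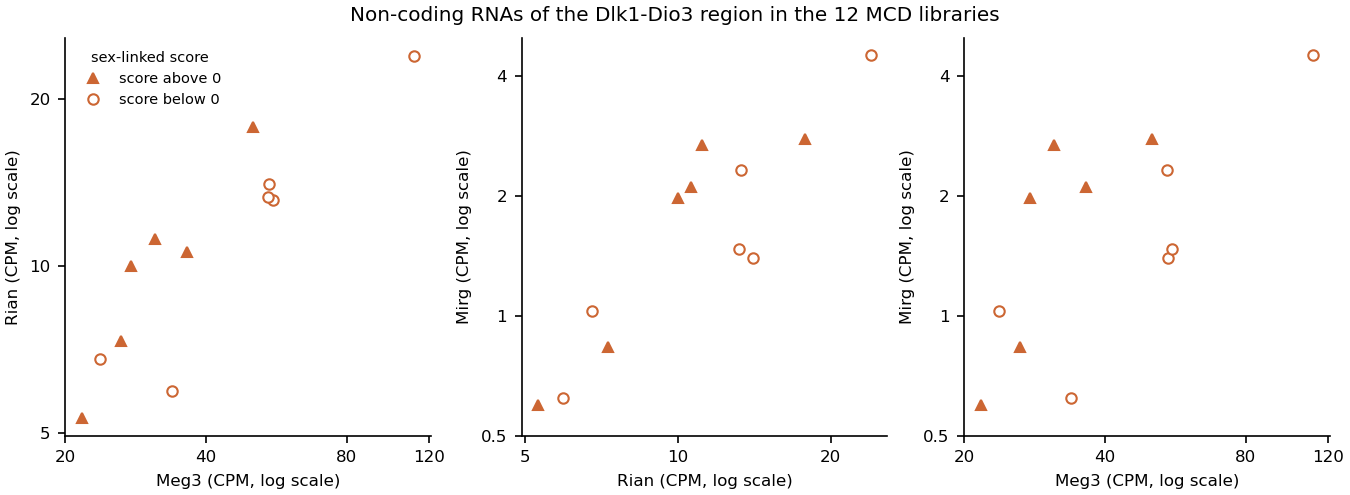
CPM of Rian against Meg3, Mirg against Rian and Mirg against Meg3 in the 12 MCD libraries (log axes), with triangles for a sex-linked score above 0 and open circles for a score below 0. Libraries with more Meg3 have more Rian (r = 0.890), and 1 library stands at the upper right of each panel with 112 CPM of Meg3.

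No relation between Meg3 and the mesenchymal markers was detected within a diet. Meg3 and the mesenchymal mean had r = -0.273 (permutation p = 0.386, adjusted p = 0.684) and rho = -0.168 (p = 0.605, adjusted p = 0.829) in MCD livers. In control livers r was 0.160 (permutation p = 0.62, adjusted p = 0.894) and rho 0.154 (p = 0.636, adjusted p = 0.829). Between the diets both Meg3 and the marker sum were higher in MCD livers, in 12 of 12 libraries each.

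H19 did track the mesenchymal markers in control livers, with r = 0.850 (permutation p = 0.00034, adjusted p = 0.00748) and rho = 0.804 (p = 0.00243, adjusted p = 0.0535). Without the 2 farthest libraries r was 0.816 (adjusted p = 0.201). Control replicate 4, the highest for H19, had the highest mesenchymal sum of the control libraries at 676 CPM and the highest proliferation sum at 15.3 CPM, while its cholangiocyte sum was 61.2 CPM and its hepatocyte sum 126569 CPM. Within the sets of 6 the relation had r = 0.950 above a score of 0 (exact p = 0.025, adjusted p = 0.3) and r = 0.912 below it (exact p = 0.0194, adjusted p = 0.3). In MCD livers r was 0.168 (permutation p = 0.611, adjusted p = 0.894) and rho 0.301 (p = 0.342, adjusted p = 0.664). Whether the relation differs between the diets was not tested.

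Over all 12 libraries of a diet, other pairs did not pass the correction. H19 and Plagl1 had r = 0.119 in MCD livers (permutation p = 0.748, adjusted p = 0.923) and rho = 0.035 (p = 0.923, adjusted p = 0.937), but r = -0.882 with residuals after the sex-linked score (permutation p = 0.0001, adjusted p = 0.00165). Within the sets of 6 their r was -0.925 above 0 (exact p = 0.0306, adjusted p = 0.31) and -0.944 below it (exact p = 0.0111, adjusted p = 0.3), so libraries of a set with more H19 had less Plagl1. H19 and Igf2 had r = 0.625 in MCD livers (permutation p = 0.0329, adjusted p = 0.227) and rho = 0.643 (p = 0.0276, adjusted p = 0.202), but r = -0.085 within the 6 libraries with a score above 0 and 0.845 within the 6 below it. H19 and Cdkn1c had r = 0.719 in control livers (permutation p = 0.00931, adjusted p = 0.117) and rho = 0.755 (p = 0.00591, adjusted p = 0.0975). Plagl1 and Mest had r = 0.756 in control livers (permutation p = 0.00446, adjusted p = 0.0736) and 0.650 in MCD livers (permutation p = 0.0207, adjusted p = 0.171). Meg3 and Plagl1 had r = -0.722 in MCD livers (permutation p = 0.0113, adjusted p = 0.117), which was -0.199 without the 2 farthest libraries. That removal also brought r to 0.348 for H19 and Cdkn1c in control livers and to 0.312 and 0.173 for Plagl1 and Mest in control and MCD livers, where it also narrows the range of the first gene. By rank over all 12 libraries, Plagl1 and Mest had rho = 0.650 in control livers (p = 0.0264, adjusted p = 0.202) and 0.455 in MCD livers (p = 0.14, adjusted p = 0.441). For H19 and Igf2 in MCD livers it left r = 0.505. The median r over the pairs of members was 0.41 in control livers (15 pairs) and 0.01 in MCD livers (36 pairs). The MCD pairs include members that entered only there.

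The genes most like each member were searched among 12359 genes with a mean of at least 1 CPM in each diet, by the mean of the r values within the 2 diets, each over 12 libraries. These are descriptions without p-values, and the top of so many genes is high by selection. Peg3 had the closest likeness, with Lrp4 at 0.901, Nedd4 at 0.896 and Dido1 at 0.891. Plagl1 was nearest to Tjp1 at 0.815, H19 to Eid1 at 0.814, Mest to Pvr at 0.809, Cdkn1c to Rap2b at 0.747 and Meg3 to Ipo4 at 0.715. In MCD livers alone, Pspc1 was among the 3 nearest of both Rian (0.852) and Mirg (0.898). Pspc1 encodes a paraspeckle protein, and its own log2 fold change between the diets was 0.19. Cdipt led for Rian at 0.886 and Ripor3 for Igf2 at 0.891.

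The other imprinted genes were divided in direction. Of 77 other mouse genes described as imprinted in at least 1 tissue, 44 were tested, 7 rose and 8 fell (edgeR's quasi-likelihood test, Benjamini-Hochberg FDR of 0.01 or less and log2 fold change beyond 0.5), beside 19.2% and 19.1% of all genes. The median log2 fold change of the 44 was -0.12. The split depends on the scaling: it was 7 and 6 with relative log expression factors, 8 and 5 with upper-quartile factors, and 11 and 3 with total counts alone. The largest rises were those of Atp10a (log2 fold change 2.65, SE 0.29), an aminophospholipid transporter, and Kcnq1 (2.14, SE 0.20), a potassium channel. Tspan32 (1.77), Asb4 (1.53), Grb10 (1.16), an adaptor that restrains insulin receptor signalling, and Dcn (0.77), which is also among the mesenchymal markers, rose less. Tfpi2, a protease inhibitor, fell most, with -1.32 (SE 0.14). Ube3a, a ubiquitin ligase (-1.03), the amino acid transporter Slc38a4 (-0.97), the organic cation transporter Slc22a3 (-0.87), Snhg14 (-0.86) and Casd1 (-0.58) fell too.

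Around the members of chromosome 7, the change was not shared by all neighbours. Of 83 rows within 500 kb of H19, Igf2 or Cdkn1c, 17 were tested, 5 rose and 2 fell, beside 19.2% and 19.1% of all genes. Kcnq1, Lsp1 (log2 fold change 2.11), Dusp8 (2.04), Tspan32 and Ctsd (1.44), the lysosomal protease cathepsin D, rose. Dhcr7, the last enzyme of cholesterol synthesis, fell by 1.03 on the log2 scale and Nadsyn1 by 0.58. Ins2 had 0 counts in all 24 libraries, Kcnq1ot1, the non-coding RNA that silences this cluster, had medians of 5.5 and 4 counts, and Phlda2 1 and 3.5. Near Plagl1, 8 of 14 rows were tested, of which Stx11 (1.19) and Fuca2 (0.67) rose and Utrn (-0.71) and Pex3 (-0.52) fell. Near Mest, 9 of 30 were tested and Gm13835 (-0.81) fell, and of the 4 tested near Peg3 none passed. Over all 266 flanking rows, 38 were tested, 7 rose and 5 fell, beside the same shares of all genes. These counts became 8 and 3 with upper-quartile factors and 12 and 1 with total counts alone.

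A list of 25 genes joined those that keep or read imprints, repressors of fetal genes in adult liver and their targets Afp and Gpc3, proteins that bind fetal RNAs, and receptors of the IGF and Notch pathways. Of these, 20 were tested, 4 rose and 6 fell under the same limits, beside 19.2% and 19.1% of all genes, against 4 and 4 with relative log expression factors, 5 and 4 with upper-quartile factors and 7 and 2 with total counts alone. Afp, the fetal serum protein that is silenced with H19 after birth, rose with a log2 fold change of 1.28 (SE 0.28, FDR 0.000233), and Gpc3, another gene of that group, had 0.69 (SE 0.32, FDR 0.0609). Zbtb20, a repressor of Afp, fell by 0.95 on the log2 scale (SE 0.19). Zhx2, a repressor of both H19 and Afp, had -0.28 (SE 0.08), which is inside the fold limit. Uhrf1, which brings the maintenance methyltransferase to replicated DNA, rose by 1.47 (SE 0.32), and the de novo methyltransferase gene Dnmt3a by 0.55. Zfp445, a zinc finger gene that maintains imprints, fell by 1.30 (SE 0.19), and Tet3 by 0.51. Among receptors, Igf1r rose by 0.72, while Insr fell by 0.91, Notch1 by 0.82 and Notch2 by 0.54. Igf2r, the clearance receptor for Igf2 that is itself imprinted, had -0.22, inside the fold limit.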

How the data were processed

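The files the authors deposited hold raw counts of reads per Ensembl gene, 1 column for each of 24 mouse liver libraries, with no normalization and with 28652 of 56205 rows at 0 throughout. All columns matched a sample title and 0 were left unused. The submitters' processing notes name STAR 2.7.3a, bcl2fastq and mm10; the study's supplement names a stranded kit and, for reads aligned to the human genome, the counting program PISCES, while the program and strand setting behind the mouse counts are not given in the sources used here. GENCODE mouse release 21 (GRCm38) gave symbols for 51745 rows. The other 4460 rows held 0.0808% of counts, and 2122 of them carry identifiers of a newer annotation, so exon limits behind the counts may differ from those printed.

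In R 4.3.3, edgeR 4.0.16 kept 14109 genes (filterByExpr by diet), scaled by TMM and compared MCD with control (glmQLFit, glmQLFTest, no covariate). A call needed an FDR (Benjamini-Hochberg) at or under 0.01 together with a log2 fold change beyond 0.5 in size, as in the study's human comparison. The SE is the absolute log2 fold change over the square root of F. Log2 CPM used a prior count of 2. Correlations used Python 3.11.15, numpy 2.4.6 and scipy 1.17.1, with two-sided permutation tests. Fits were tested on simulated counts. Intervals are exact and conditional on the total count. Total counts were 16388650 to 24915175 per library. Libraries are separate animals by the series design.

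The members and all lists were chosen with earlier results of these data known. Named were all members, up to 6 list genes per direction with the largest change, list genes at a member's locus, and the 3 genes most like each member; Zhx2, Gpc3, Igf2r and Fuca2 were added as related genes after their values were seen. Alternatives were relative log expression, upper-quartile factors, total counts alone, no filter, at least 10 counts in every library, DESeq2 1.42.0, limma-voom (limma 3.58.1), a replicate block, the sex-linked score as a covariate, other thresholds, another prior count and each library left out. Analyses within the sets above and below a score of 0, also without control replicate 4, were added after seeing the data. Sequences are from RefSeq. H19 and Cdkn1c promoters and protein sequences were not used here.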

Additional observations from a re-analysis of the deposited data

How the results depend on the processing

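Dlk1 was not in the fit. The other 9 members kept their direction under each alternative that gave them a value, and only Mirg and Igf2 moved by more than the spread between libraries. Mirg was 5.65 with limma-voom, 8.29 among libraries with a sex-linked score below 0, 6.81 among those above 0 without control replicate 4, and 7.25 to 8.27 with 1 library left out. The values of 8.29 and 8.27 are over control groups at 0 counts of Mirg, so their size reflects the fit and not a measured ratio. Igf2 was 2.57 among libraries with a score above 0 without control replicate 4. H19 was 3.15 there, against 1.55 in the main fit. That was counted as inside its spread between libraries, 1.61 on the log2 scale, which includes control replicate 4. Leaving out 1 library moved H19 between 1.33 and 2.72, the upper value without control replicate 4. The requirement of at least 10 counts in every library removed Meg3, Rian, Mirg, H19, Igf2 and Plagl1, and Igf2 gave no value among libraries with a score below 0, each by construction. Relative to TMM, upper-quartile factors raised the median log2 fold change of all genes by 0.15 and total counts alone by 0.37. Counts of other imprinted genes that rose (7) became 11 with total counts alone and 4 with at least 10 counts in every library; those that fell (8) became 5 with upper-quartile factors, 3 with total counts, 5 with at least 10 counts, 15 at an FDR of 0.05 and any fold and 2 with a log2 limit of 1, and 5 to 9 with 1 library left out, the lowest without MCD replicate 2. Regulators that rose (4) became 7 with total counts and 2 with a log2 limit of 1, and those that fell (6) became 2 and 1. Flanking genes that rose (7) became 12 with total counts, 13 with no filter and 4 with at least 10 counts; those that fell (5) became 3 with upper-quartile factors, 1 with total counts, 3 with at least 10 counts, 10 at an FDR of 0.05 and 1 with a log2 limit of 1. Relations past the threshold in control livers (1) became 3 with total counts, 2 with a prior count of 0.5, 0 for Spearman's rho and 0 without the 2 farthest libraries, and in MCD livers (2) became 4 with residuals after the sex-linked score and 0 without the 2 farthest libraries. The r of H19 and Plagl1 in MCD livers, 0.119 over all 12, reversed to -0.88 with those residuals (adjusted p = 0.00165). Where thresholds, filters or fewer libraries do not account for a change, the cause was not tested.

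Replicate numbers are shared between the diets but nothing says that they pair animals. Of 12 same-numbered pairs, 8 had a correlation of deviations above 0.1 (range -0.28 to 0.35), and 3 of 24 libraries correlated best with their own number. With the number as a replicate block, Meg3 had a log2 fold change of 5.89, Rian 5.57, Mirg 7.43, H19 2.08, Igf2 1.43, Cdkn1c 1.39, Plagl1 -0.19, Peg3 -0.80 and Mest -1.23. H19 then had an SE of 0.38, where the main fit gave 1.55 with an SE of 0.62, and Igf2 an SE of 0.46. Which members lie beyond both limits with the block is not given here. The counts were 7 and 7 for other imprinted genes, 4 and 5 for regulators and 7 and 4 for flanking genes, higher and lower.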
